A study of Mus musculus with 2 samples.

Results

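Small RNAs of 24 to 30 nt that carry A at position 10 and no T at position 1 were described in mouse testis with and without Tdrkh. This pair of bases is the mark of secondary piRNAs, and a read that carries it is called a secondary-type read here. Members were distinct sequences of that length in either library that matched no microRNA or structural RNA gene in sense and no more than 20 genes on a strand of the GENCODE M21 transcripts. There were 1030640 of them among 10815697 sequences of 24 to 30 nt and 22794309 sequences in all.

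The Tdrkh-/- library was made from 5 pooled pairs of testes of homozygous knockout mice and the Tdrkh+/- library from 5 pooled pairs of heterozygous mice, both at 11 days after birth. The knockout allele had lost exons 2 to 4 with the start codon by EIIa-Cre excision of a floxed allele on a C57Bl6/129 background. Both genotypes carried this allele, and the EIIa-Cre transgene was bred out. Of 2 independent knockout lines that were made, the one used for the libraries is not named in the labels. Tissue was whole testis, in which several cell types other than germ cells remain. The Tdrkh-/- library held 60973266 reads of 12118721 sequences and the Tdrkh+/- library 43172204 reads of 11808018 sequences. With 1 library per genotype, differences had no replicate check and no test was run. Intervals are at 95% and hold counting error alone, because reads that carry no molecular identifier are not independent molecules.

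PIWI proteins bind piRNAs and use them as guides to cut complementary RNA. In mouse germ cells a primary piRNA, which usually starts with U (T in the sequences here), guides the cut of an opposite-strand RNA 10 nt from its own 5′ end. The cut product becomes the 5′ end of a secondary piRNA, so the pair overlaps by 10 nt and the U of the first faces an A at position 10 of the other. The exchange is known as the ping-pong cycle and acts mainly on transposon RNA. TDRKH sits on the outer face of mitochondria, where the 3′ ends of piRNA precursors are shortened, and binds PIWI proteins through its Tudor domain.

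The sequences below are pairs in which the member matched a single gene, chosen for their abundance and because both strands were read. In each member A at position 10 is in capitals, and in each partner the T at position 1 that faces it. All are written 5′ to 3′ as the deposited lists give them, and coordinates are those of GRCm38.
D10Wsu102e sense member, chr10:83433078-83433107, plus strand, 3′ untranslated part of exon 4: accatctgtAtaaatatccaatgcacccga
D10Wsu102e partner, chr10:83433058-83433087, minus strand: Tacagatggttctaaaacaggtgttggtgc
Gm30948 sense member, chr12:115285158-115285185, plus strand, exon 4: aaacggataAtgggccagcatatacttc
Gm30948 partner, chr12:115285139-115285167, minus strand: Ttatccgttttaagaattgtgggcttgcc
Gm47652 antisense member, chr9:37334110-37334138, plus strand, exon 1: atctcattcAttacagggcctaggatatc
Gm47652 partner, also antisense to Gm38194, chr9:37334096-37334119, minus strand: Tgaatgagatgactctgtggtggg
Gm42860 antisense member, chr5:60807243-60807272, plus strand, exon 1: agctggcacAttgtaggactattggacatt
Gm42860 partner, chr5:60807228-60807252, minus strand: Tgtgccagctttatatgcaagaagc
D10Wsu102e antisense member, chr10:83432906-83432932, minus strand, 3′ untranslated part of exon 4: attcggcttAtgtagtaaatgcagtgc
D10Wsu102e antisense member's partner, chr10:83432923-83432950, plus strand: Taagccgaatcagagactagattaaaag

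Members of several genes held more reads than these. The members below are among the 10 most abundant, and each lies in several genes. Again A at position 10 or T at position 1 is in capitals.
Fgd4, Gm37767 and Gm48416 sense, 6 other genes antisense: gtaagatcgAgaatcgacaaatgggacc
Gm42863, 4930470H14Rik and 4 other genes sense: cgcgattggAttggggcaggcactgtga
Its partner, antisense to Gm42863, 4930470H14Rik and Gm26905: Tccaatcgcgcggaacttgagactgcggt
Tmem245, Gm6313 and Gm38383 sense, Vmn2r66 antisense: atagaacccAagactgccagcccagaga

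Secondary-type reads were lower in Tdrkh-/- than in Tdrkh+/- per microRNA read, but less so than the other classes of the same length. There were 1583649 secondary-type reads in Tdrkh-/- and 2013212 in Tdrkh+/-, 10.7% and 6.51% of the 24 to 30 nt reads. Per microRNA read this was 0.637 in Tdrkh-/- and 0.852 in Tdrkh+/-, for a ratio of 0.748 (95% exact conditional binomial interval 0.746 to 0.749). Reads with T at position 1 had a ratio of 0.492 where position 10 was A and of 0.336 where it was not. Those with neither base had a ratio of 0.481. Among sequences that match a single gene the classes lay closer together, with 0.441 for members and 0.400 for reads with neither base. Single-gene reads with T at position 1 had 0.356 where position 10 was A and 0.304 where it was not. Ratios here are Tdrkh-/- over Tdrkh+/-. On the scale of all reads listed each log2 ratio shifts by -0.42, and on that of transcript-matching reads by -0.57, so that a ratio under 1.34 falls below 1 on both and one under 1.49 on the last.

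Few members were read in both libraries. Of the sequences, 369541 were found in Tdrkh-/- and 709668 in Tdrkh+/-, and the 48569 found in both carried 58.2% of the secondary-type reads of Tdrkh-/- and 37.7% of those of Tdrkh+/-. In Tdrkh-/- 69.4% of members were read once, and in Tdrkh+/- 67.2%. The reads of Tdrkh-/- were the more concentrated: the 10 most abundant members held 10.05% of them there and 4.67% in Tdrkh+/-, and the 100 most abundant held 22.1% and 10.6%.

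A was more frequent at position 10 than at the median position in both libraries, and the most frequent in Tdrkh-/- alone when all genes were counted. Since the rule selects this base, its frequency was taken from the reads without T at position 1 before that selection. A was at position 10 in 49.6% of these reads in Tdrkh-/- and in 38.8% in Tdrkh+/-. The median over the other positions from 2 to 24 was 28.3% in Tdrkh-/- and 28.4% in Tdrkh+/-. Position 10 was the richest in A in Tdrkh-/-, where the next, position 3, had 36.2%. In Tdrkh+/- position 5 had more, 41.3%. Among sequences that match a single gene the A share at position 10 was 35.1% in Tdrkh-/- and 32.8% in Tdrkh+/-, and position 2 was richer in both, with 36.8% and 41.1%. Members started with A in 46.3% of reads in Tdrkh-/- and 43.3% in Tdrkh+/-, and with C in 35.0% and 38.9%. At the 3′ end A was more frequent in Tdrkh-/-, with 21.9% of reads, than in Tdrkh+/-, with 13.6%. The other classes of this length also differed, with 18.7% to 20.6% in Tdrkh-/- and 12.6% to 13.3% in Tdrkh+/-.

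Lengths of the members were spread over the window in Tdrkh-/- and gathered in its middle in Tdrkh+/-. In Tdrkh-/- 39.7% of the reads were of 26 to 28 nt, against 60.1% in Tdrkh+/-. Tdrkh-/- had its most frequent length at 30 nt and Tdrkh+/- at 28 nt, while the means, 27.86 nt and 27.72 nt, lay close together. By length the ratio was 2.08 at 24 nt, 1.05 at 25 nt, 0.457 at 26 nt, 0.418 at 27 nt, 0.586 at 28 nt, 0.951 at 29 nt and 1.18 at 30 nt. Those at 25 and 30 nt fall below 1 on both other scales. Members thus had both more of the shortest and more of the longest reads of the window relative to its centre in Tdrkh-/-. This was not particular to the members. In the other classes 37.2% to 41.5% of reads were of 26 to 28 nt in Tdrkh-/- and 63.2% to 65.5% in Tdrkh+/-. Their most frequent lengths were 30 nt and 27 nt.

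From the same 5′ ends, reads went on beyond 30 nt far more often in Tdrkh-/-. For each read of 24 to 30 nt at a 5′ end of a member, taken as its first 24 nt, Tdrkh-/- had 2.41 reads of 31 to 37 nt and Tdrkh+/- 0.236. Among 2088 ends that reached 50 reads in both libraries, 1841 (88.2%) had the longer reads in Tdrkh-/-, by a median of 1.52 nt (quartiles 0.435 and 3.02 nt). Ends of reads with T at position 1 and no A at position 10 were longer by a median of 2.25 nt over 13992 ends. The median of the mean lengths at these ends came to 31.5 nt in Tdrkh-/- and 29.3 nt in Tdrkh+/- for the members. The class with T at position 1 and no A at position 10 had 31.4 nt in Tdrkh-/- and 28.5 nt in Tdrkh+/-.

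Some single ends show the shift in read counts. The 5′ end of the antisense Gm42860 member printed above had 854 reads of 28 nt in Tdrkh-/- and 2530 in Tdrkh+/-. At 33 nt it had 5689 reads in Tdrkh-/- and 547 in Tdrkh+/-, and at 35 nt 5496 and 210. Tdrkh-/- thus had most reads there at 33 nt and Tdrkh+/- at 28 nt. At the end of the D10Wsu102e sense member there were 77 reads of 28 nt in Tdrkh-/- and 319 in Tdrkh+/-, 6149 and 345 of 30 nt, and 4859 and 150 of 32 nt. At 29 nt, between these lengths, it had 316 and 246 reads. Its most frequent length was 30 nt in both libraries. The most abundant member of all, which matched no transcript, was 29 nt long and had 56233 reads in Tdrkh-/- and 2950 in Tdrkh+/-. The sequence 1 nt shorter from the same 5′ end was also a member, with 8275 and 24332 reads, so the order of the libraries turned with 1 nt of length. Not every end shifted: another unplaced member of 30 nt had 11043 and 31208 reads, and reads of 31 to 37 nt were few at its end in both libraries, at most 689 at any length. Many ends of the abundant members listed kept the same most frequent length in both libraries. The end of the sequence printed under Tmem245 had most reads at 28 nt in both, 2764 and 8863. That of the sequence printed under Fgd4 had most at 28 nt in Tdrkh-/- (20182) and at 29 nt in Tdrkh+/- (215).

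The strand shares of the members differed most between the libraries in sequences that were sense alone or lie in both orientations. Of the members, 222225 sequences (21.6%) matched a transcript, with 46.0% of the secondary-type reads in Tdrkh-/- and 44.4% in Tdrkh+/-. Of the matched reads, 39.5% in Tdrkh-/- and 67.0% in Tdrkh+/- were sense alone, a ratio of 0.456 per microRNA read (0.454 to 0.458). Reads antisense alone made up 6.34% (95% Wilson interval 6.28% to 6.39%) and 5.28% (5.23% to 5.33%), with a ratio of 0.928. Sequences found sense in some genes and antisense in others made up 54.2% and 27.7%, with a ratio of 1.51 per microRNA read. The other classes also had a larger share of such reads in Tdrkh-/-, 25.5% to 45.5% against 8.51% to 12.7% in Tdrkh+/-. Whether such sequences are repeats or lie where genes of opposite strands overlap was not tested. Members of a single gene had a ratio of 0.441, and members with no transcript match one of 0.727. Within single-gene members, those antisense to their gene had a ratio of 0.892. They made up 11.2% of single-gene members' reads in Tdrkh-/- and 5.54% in Tdrkh+/-, so strand also differed without sequences in both orientations.

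Hosts of the sense reads were mostly protein-coding genes, less so in Tdrkh-/-. Protein-coding genes held 50.1% of sense secondary-type reads in Tdrkh-/- and 72.1% in Tdrkh+/-, with a ratio of 0.532. Pseudogenes held 21.1% and 6.73%, with a ratio of 2.40. The TEC class, loci whose transcripts await experimental tests, held 16.8% and 8.82%, with a ratio of 1.45 that falls below 1 when scaled per transcript-matching read. Long noncoding genes held 12.03% and 12.3% of sense reads, with a ratio of 0.746, but 38.9% and 20.96% of antisense reads, with a ratio of 2.64. Other 24 to 30 nt reads sense to pseudogenes had a ratio of 1.33, and those sense to protein-coding genes one of 0.387. Within messenger RNAs 67.0% of the sense members' reads in Tdrkh-/- and 62.7% in Tdrkh+/- lay in 3′ untranslated parts, which make up 43.2% of the bases. The other sense reads of 24 to 30 nt lay there more often than the members, with 74.8% in Tdrkh-/- and 71.4% in Tdrkh+/-. Coding parts held 29.6% and 33.6% of the sense members' reads on 49.4% of the bases. Antisense members lay almost wholly outside coding parts, with 1.44% of reads there in Tdrkh-/- and 3.87% in Tdrkh+/-. The other antisense reads of 24 to 30 nt also lay mostly outside them, with 2.68% and 10.1% in coding parts.

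Most sense hosts had fewer secondary-type reads in Tdrkh-/-. Of 1044 genes that reached 200 of these reads over both libraries, 578 (55.4%) were 2-fold or more lower per microRNA read and 197 (18.9%) 2-fold or more higher, and the median log2 ratio was -1.27. The background is every gene that reached 200 sense reads of 24 to 30 nt of any kind, where 71.0% of 8041 were lower by the same mark and 4.64% higher. The share of lower hosts was thus below the background and that of higher hosts above it, but the background holds many other genes. Of the 1005 hosts that also reached 200 other 24 to 30 nt reads, 56.4% were lower and 17.9% higher by secondary-type reads. By the other reads of these same hosts 63.2% were lower and 14.8% higher, a smaller gap than that to the background. The 522 hosts that drew at least 90% of their secondary-type reads from single-gene sequences held 405 lower (77.6%) and 7 higher genes (1.34%). On the antisense strand 103 of 366 hosts (28.1%) were lower by this mark and 148 (40.4%) higher, and the median log2 ratio was 0.50. The shares over all 24 to 30 nt antisense reads were 48.0% lower and 22.4% higher of 1607 genes. The antisense median turns below 0 when scaled per transcript-matching read, where 124 hosts were lower and 126 higher, and at a minimum of 50 reads lower hosts outnumbered higher ones, with 370 and 296 of 960. Within the same gene, the secondary-type log2 ratio differed from that of its other 24 to 30 nt reads in both directions, with a median difference of 0.09 and quartiles of -0.62 and 0.75 over 1005 sense hosts. Over 333 antisense hosts the median difference was 0.22, with quartiles of -0.51 and 1.14. Of these 333 hosts, 28.2% were lower and 41.7% higher by secondary-type reads, and 35.1% and 39.0% by their other reads. There were 178 genes that reached 200 reads on both strands, 17.1% of the sense hosts and 48.6% of the antisense hosts.

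D10Wsu102e, a protein-coding gene, led the sense hosts and was among the most read on the antisense strand. Its sense secondary-type reads numbered 34837 in Tdrkh-/- and 33029 in Tdrkh+/-, a log2 ratio of 0.00 (-0.02 to 0.03), while its other sense reads of 24 to 30 nt had one of -1.11. Antisense it had 12732 and 13671 reads, with a log2 ratio of -0.18, and its other antisense reads had one of -0.92. Of its secondary-type reads 47.5% came from single-gene sequences in sense and 18.5% antisense. Members of this gene were thus close to level per microRNA read where its other reads of this length were lower in Tdrkh-/-.

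Several of the leading hosts shared their members. The sequence printed above under Fgd4, a guanine nucleotide exchange factor for Cdc42, had 19677 reads in Tdrkh-/- and 179 in Tdrkh+/- and lay in 9 genes, among them Gm48416, Gm37767, Gm26905 and Gm37701. Reads with its first 18 nt numbered 77313 in Tdrkh-/- and 579 in Tdrkh+/-. Gm48416 had 29306 sense reads from Tdrkh-/- and 735 from Tdrkh+/- (log2 ratio 5.24), and in Gm37767 27865 and 644 (5.36). Fgd4 had 11967 and 614 (4.21), and the Y-linked Gm37158 13669 and 1194 (3.44). Single-gene sequences made up at most 4.00% of the reads of these 4 hosts, and Gm48416, Gm37767 and Fgd4 share the sequence above, so the values of those 3 are not independent. Antisense, Gm26905 had 54826 and 2892 reads (4.17), Gm47578 30515 and 2251 (3.69), Gm37701 24818 and 726 (5.02) and the vomeronasal receptor gene Vmn2r114 11441 and 1079 (3.33), with single-gene shares of at most 0.699%. Gm26905 and Gm37701 hold the sequence above antisense. Another member, with 15825 reads in Tdrkh-/- and 44 in Tdrkh+/-, lies sense in Gm37158 and antisense in Gm26905, Gm47578 and Vmn2r114. The values of these sense and antisense hosts are thus not independent either.

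The other abundant hosts lay nearer to level, some lower and some higher in Tdrkh-/-. Tmem245, a membrane protein gene, had sense reads numbering 3326 in Tdrkh-/- and 8911 in Tdrkh+/- (log2 ratio -1.50). The sequence printed above, with 2616 and 7697 reads before they are split, is shared by Tmem245 with 2 other genes in sense. Sense reads of Gm47652 numbered 4429 and 8487 (-1.01), of Gm44231 3407 and 5756 (-0.83), of Gm38194 6303 and 6247 (-0.06) and of the amino acid transporter gene Slc38a6 5066 and 4037 (0.25). Antisense reads of the vomeronasal receptor gene Vmn2r66 numbered 3983 and 14203 (-1.91), of Gm38194 8196 and 15529 (-0.995) and of Gm47652 6337 and 11313 (-0.91). Noct, which encodes the phosphatase nocturnin, had 9276 and 7471 antisense reads (0.24), and Gm42860 had 7106 and 4628 (0.55). Against the other 24 to 30 nt reads of the same gene and strand, the log2 ratio of the secondary-type reads was higher by more than 0.1 in Tmem245, Gm47652 sense, Gm38194 on both strands, Slc38a6 and Gm42860, lower by more than 0.1 in Vmn2r66, Gm47652 antisense and Noct, and within 0.1 in Gm44231. Positive values among them turn negative when scaled per transcript-matching read.

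The 5 hosts with the highest ratios were Gm13267, Kcnmb4 and Olfr1555-ps1 antisense and Gm48683 and Olfr157 sense, with 2810 to 3565 reads in Tdrkh-/- and 0 in Tdrkh+/-. With a floor of 3 counts in Tdrkh+/- the ratio was 1130 for Gm13267 and 890 for Olfr157, an olfactory receptor gene. The lower limits of their intervals were 918 and 724. These 5 genes share a member of 24 nt with 9127 reads in Tdrkh-/- and 0 in Tdrkh+/-, where reads with the same first 18 nt numbered 201 and reads with 18 nt that differ at 1 base 13910. No source used here says whether sequences were removed from either list before deposit. The 5 lowest were noncoding genes that drew at least 96.2% of these reads from single-gene sequences. D130020L05Rik had sense reads numbering 0 in Tdrkh-/- and 534 in Tdrkh+/-, for a ratio of 0.00534 with the same floor and an interval up to 0.00659. Gm14244 had 2 and 334, a ratio of 0.00569 (0.000687 to 0.0207). The other 3, Gm10505 and CT025671.4 antisense and 4930481B07Rik sense, had at most 1 read in Tdrkh-/- and 228 to 284 in Tdrkh+/-. CT025671.4 had a ratio of 0.00401 (0.000101 to 0.0226) and 4930481B07Rik one of 0.00417 (0.000105 to 0.0235), and for Gm10505, where a read was split among genes, the interval reached up to 0.0188.

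Genes of the piRNA pathway were themselves weak hosts of secondary-type reads. Of 25 listed genes, 14 had at least 20 sense reads, and 10 of these were 2-fold or more lower in Tdrkh-/- and 0 as much higher. Among all 7464 genes with at least 20 such reads 56.3% were lower by this mark and 7.15% higher. The median log2 ratio was -1.32 over the 14 genes and -1.22 over all 7464. Piwil2, which encodes the PIWI protein MILI, was the most read, with 415 reads in Tdrkh-/- and 258 in Tdrkh+/-, a log2 ratio of 0.61 (0.38 to 0.84) that shrinks to near 0 when scaled per transcript-matching read. Tex15, a gene needed for transposon silencing in germ cells, had 55 and 161 (-1.62). Exd1, which encodes a protein of the secondary piRNA complex, had 17 and 105 (-2.66), and Tdrd12, its partner there, 5 and 34 (-2.84). Tdrd1, a Tudor protein that binds MILI, had 30 and 29 (-0.02). Antisense to these genes 2 had any secondary-type read, with 11 and 18 reads in all.

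Marker genes of the testis cell types were checked as hosts in the same way. Of 10 germ cell markers 9 had at least 20 sense secondary-type reads and 7 were lower by the 2-fold mark in Tdrkh-/-, with a median log2 ratio of -2.19, against the 56.3% of all genes at this minimum. The list summed to 538 reads in Tdrkh-/- and 719 in Tdrkh+/-, and without Piwil2 to 123 and 461. The 5 Sertoli cell markers summed to 52 and 64 reads, with 0 for Amh, the 4 Leydig cell markers to 31 and 40, and the 2 peritubular markers to 204 and 100. In a whole testis fewer cells of a type and less RNA per cell cannot be told apart, and the part of cell composition in the values above was not tested.

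Members were met by opposite-strand reads at an overlap of 10 nt more often than at any other overlap of 1 to 24 nt, in both libraries. Of the secondary-type reads placed on the 1 transcript used per gene, 42.5% in Tdrkh-/- (95% Wilson interval 42.3% to 42.6%) and 19.5% in Tdrkh+/- (19.4% to 19.6%) had a 24 to 30 nt partner at 10 nt in their own library. All reads of a member were counted as having a partner, however few reads the partner had. At the other overlaps the median share was 17.4% in Tdrkh-/- and 9.45% in Tdrkh+/-. The highest was 28.7%, at 13 nt, in Tdrkh-/-, and 14.2%, at 11 nt, in Tdrkh+/-. The value at 10 nt was thus 2.44 times the median in Tdrkh-/- and 2.06 times in Tdrkh+/-, so the libraries differed less in this excess than in the shares themselves. A partner at 10 nt starts with T by construction, since it faces the A. As a control, reads without T at position 1 and with A at position d were taken at each overlap d. The partner then starts with T throughout. The highest share at another overlap was 26.5% in Tdrkh-/- and 12.6% in Tdrkh+/-, both at 7 nt. Under this control the value at 10 nt was 2.12 times the median in Tdrkh-/- and 2.10 times in Tdrkh+/-. The excess over the median was thus nearly the same in both libraries. The excess was not particular to the members. Reads with both T at position 1 and A at position 10 had a partner at 10 nt in 26.7% in Tdrkh-/- and 9.17% in Tdrkh+/-, 2.98 and 2.08 times their medians at other overlaps under the same control. Reads with neither base had 9.86% in Tdrkh-/- against a median of 10.1% at the other overlaps, and 4.46% in Tdrkh+/- against 4.51%.

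Weighing pairs by the product of their counts put 32.01% of all overlap pairs of members at exactly 10 nt in Tdrkh-/- and 22.8% in Tdrkh+/-. The next overlaps held 8.05%, at 4 nt, and 11.4%, at 8 nt. Counted once per sequence pair, 11.2% and 9.69% lay at 10 nt, against highest values of 6.23% and 5.13% at 11 nt. Among single-gene sequences partners were rare, with 5.68% of reads in Tdrkh-/- and 1.99% in Tdrkh+/- at 10 nt. Their highest shares elsewhere, both at 8 nt, were 4.84% and 1.45%.

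Members with a partner at 10 nt were higher in Tdrkh-/- and members without were lower. The 13749 members with a partner in either library had 335780 reads in Tdrkh-/- and 174832 in Tdrkh+/-, for a ratio of 1.83 per microRNA read (1.82 to 1.84). The 196928 placed members without one had 374882 and 683875 reads, a ratio of 0.521 (0.519 to 0.523). The ratio with a partner was 3.50 times the ratio without on any of the 3 scales. Partners had been sought in both libraries, so that some members entered the group through Tdrkh-/- reads alone. With partners from Tdrkh+/- alone the ratios were 1.39 with and 0.640 without, and the first was 2.17 times the second. Some abundant members counted as partnered through few partner reads. The sequence printed under Fgd4, with 19677 reads in Tdrkh-/-, had 4 partner reads there. The 24 nt member with 9127 reads in Tdrkh-/- and 0 in Tdrkh+/- also had 4. Without the 100 most abundant members the ratios were 1.24 with a partner and 0.485 without. Members with an opposite-strand overlap of another length but none of 10 nt lay between, with a ratio of 1.01 over 17472 sequences that falls below 1 on both other scales, and members with no such overlap had one of 0.411 over 179456 sequences. The same order was seen among members of a single gene: 1.21 with a partner at 10 nt (4032 sequences), 0.652 with another overlap and 0.393 with none. Partners at 10 nt were again sought in both libraries, and this order was not tested with partners from Tdrkh+/- alone. The groups also differed in abundance. Single-gene members with a partner had 6.74 reads per sequence in Tdrkh-/- and 5.31 in Tdrkh+/-, and those with no overlap 1.26 and 3.05. The value of 1.21 falls below 1 on both other scales, and without D10Wsu102e it was 1.05.

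The partners themselves began with T and never had A at position 10, both fixed by the rule for the members. In Tdrkh-/- 5246 partners had 322596 reads and in Tdrkh+/- 11800 partners had 398531 reads. For the middle member there were 2.33 partner reads per member read in Tdrkh-/- and 2.00 in Tdrkh+/-. Within the window of 24 to 30 nt the partners were longer in Tdrkh-/-, with a mean of 28.4 nt and a mode of 30 nt, against 27.3 nt and 26 nt in Tdrkh+/-. The members they paired with averaged 27.5 nt in Tdrkh-/- and 27.6 nt in Tdrkh+/-. With reads up to 37 nt counted at the same 5′ ends, both were longer in Tdrkh-/-. The ends of members with a partner averaged 32.8 nt in Tdrkh-/- and 29.2 nt in Tdrkh+/-, their partners' ends 32.4 nt and 28.5 nt, and the ends of placed members without a partner 32.2 nt and 28.8 nt. The close means of the members within the window were thus not seen over the longer range.

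The pairs printed above show how unequal the strands were. The D10Wsu102e sense member had 5937 reads in Tdrkh-/- and 318 in Tdrkh+/-, for a ratio of 17.7 (15.9 to 19.9), and its partner 40 and 8 reads. The Gm30948 member had 675 and 174 reads and its partner 45 and 15. A second Gm30948 member that starts 1 nt upstream had 589 and 43 reads, with partner reads of 53 and 24 that also start 1 nt apart. In Gm47652 the order was the other way: the antisense member had 213 and 403 reads and the partner 109 and 938. The Gm42860 member had 1659 and 325 reads against a partner with 0 reads in Tdrkh-/- and 1 in Tdrkh+/-. The antisense D10Wsu102e member had 4 reads in Tdrkh-/- and 704 in Tdrkh+/-, for a ratio of 0.00540 (0.00147 to 0.0139), with 4 and 8 reads of its partner. Members of the same gene thus differed in direction.

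Among members of several genes, the sequence of Gm42863 and 4930470H14Rik had 10532 reads in Tdrkh-/- and 386 in Tdrkh+/- and the printed partner 1356 and 6, and its 16 partners had 4596 and 83 reads together. By contrast the sequence printed under Fgd4 had 1 partner, with 4 reads in Tdrkh-/- and 0 in Tdrkh+/-, and that printed under Tmem245 had none. These members thus ranged from many partner reads to none.

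By host, the share of secondary-type reads with a partner ran from nearly none to nearly all among the leading genes. In Tmem245 2.51% of placed sense reads in Tdrkh-/- and 4.68% in Tdrkh+/- had one, and antisense to Vmn2r66 0.351% and 0.534%. In D10Wsu102e 65.8% of placed sense reads in Tdrkh-/- and 52.9% in Tdrkh+/- had a partner at 10 nt in either library. The shares were 85.4% and 89.6% for sense reads of Gm47652, 95.5% and 87.6% for Slc38a6, and 92.9% and 91.7% for antisense reads of Noct. Partnered sense reads of D10Wsu102e had a ratio of 1.25, which falls below 1 on both other scales, and partnered antisense reads one of 0.946. In Gm47652 the partnered reads were lower in Tdrkh-/- on both strands, with ratios of 0.473 in sense and 0.536 antisense, so a partner did not go with a higher level in Tdrkh-/- at every host.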

How the data were processed

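Per the labels' protocols, RNA of 15 to 40 nt was gel-purified, prepared with an Illumina kit for small RNA and sequenced with the Genome Analyzer II. Bowtie and mm9 are named in the submitters' processing notes. No version, trimming step or filter is stated there. Each deposited list pairs a distinct sequence of 18 to 40 nt with its raw read count, with 1 list per library.

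Sequences were matched exactly and at full length to both strands of the GENCODE M21 transcripts (GRCm38). The scripts ran in Python 3.11.15; the packages were pandas 2.3.3, Numba 0.67.0, SciPy 1.17.1 and NumPy 2.4.6. No genome sequence was used. The transcripts lack nuclear tRNA genes and the full ribosomal RNA precursor, so unplaced members may hold fragments of them. The scale was reads of 18 to 25 nt sense to microRNA genes, 2486303 in Tdrkh-/- and 2363475 in Tdrkh+/-. A read in more than 1 gene of a strand was split evenly between them. Overlaps were sought on 1 transcript per gene. Sequences of unplaced members are not printed.

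Ratios carry exact conditional binomial intervals and shares Wilson intervals, at 95%. Where a library had 0 counts, 3 counts were put in its place for the ratio, while the interval used the 0. Hosts were named by rule: the 10 most read on each strand, the 5 highest and the 5 lowest ratios at 200 reads or more, and the piRNA pathway genes. Single sequences were the 10 most abundant members and the 10 most abundant single-gene members with a partner, of which a few are shown. Members, lists and rules were chosen with earlier results of these data known. Alternatives changed the scale, the counting, the length window, the gene limit, the host minimum and the partner pool.

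The matcher was checked against a plain search on 40 sequences, with 0 differing, and the overlap finder on 2000 planted overlaps, with 0 missed. On Poisson counts simulated for the 1044 sense hosts, 100 of 100 genes lowered 4-fold passed the 2-fold mark, against 0 of 100 raised 1.5-fold and 0 of 844 unchanged. For the 366 antisense hosts these were 100 of 100, 0 of 100 and 0 of 166. Intervals held the true ratio in 95.7% of sense and 96.2% of antisense hosts. The draws held no variation between animals.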

Additional observations from a re-analysis of the deposited data

Results flagged for a closer look

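Sequences with A at position 10 and no T at position 1 that lie in more than 20 genes on a strand are not members, and they were higher in Tdrkh-/-. These 3335 sequences had 294793 reads in Tdrkh-/- and 74702 in Tdrkh+/-. Their ratio was 3.75 per microRNA read (3.72 to 3.78), where the members had 0.748.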

How the results depend on the processing

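Most alternatives moved the values, and the cause was not tested. Among antisense hosts higher genes outnumber lower ones, and a minimum of 50 reads turns this round. So does keeping only hosts with at least 90% of these reads from single-gene sequences. Ratios between 1 and 1.49 in the report fall below 1 on 1 or both of the other scales. Those that leave out the 100 most abundant members or D10Wsu102e, change the partner pool or scaling of the partner groups, or restrict these groups to single genes, were chosen after seeing the data. The overall ratio of 0.748 was 0.557 per read listed, 0.502 per transcript-matching read, 0.495 with each distinct sequence counted once, 0.821 without sequences read once, 0.495 at 26 to 28 nt, 0.441 for single-gene sequences, 0.855 with no limit on genes and 0.652 without the 100 most abundant members. The ratio with a partner was 1.36 per read listed, 1.23 per transcript-matching read, 1.21 for single-gene members, 1.39 with partners from Tdrkh+/- alone, 1.24 without the 100 most abundant and 1.05 for single-gene members without D10Wsu102e. Without a partner the same settings gave 0.388, 0.350, 0.408, 0.640, 0.485 and 0.405. The first divided by the second was 2.95, 2.17, 2.57 and 2.59 under the last 4 of them, against 3.50.

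The share of placed reads with a partner was, in Tdrkh-/- and Tdrkh+/-, 9.49% and 5.55% over distinct sequences, 40.5% and 18.8% without sequences read once, 34.7% and 17.2% at 26 to 28 nt, 5.68% and 1.99% for single-gene sequences, 47.2% and 20.4% with partners from either library, and 30.7% and 16.8% without the 100 most abundant. The share of overlap pairs at 10 nt was 11.2% and 9.69% over distinct sequences, 27.7% and 26.4% at 26 to 28 nt, 32.8% and 20.3% for single-gene sequences, and 20.1% and 19.5% without the 100 most abundant. It was 23.04% in Tdrkh+/- without sequences read once and 27.5% in Tdrkh-/- with partners from either library. In each of these settings 10 nt held more than any other overlap in both libraries.

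Mean lengths were 27.756 nt in Tdrkh-/- and 27.647 nt in Tdrkh+/- over distinct sequences, 27.876 and 27.745 nt without sequences read once, 27.918 and 27.684 nt for single-gene sequences, and 27.807 and 27.681 nt without the 100 most abundant. The antisense share was 7.32% and 5.51% over distinct sequences, 6.25% and 5.23% without sequences read once, and 11.2% and 5.54% for single-gene sequences. Sense hosts past the 2-fold mark numbered 452 lower and 28 higher of 616 for single-gene sequences, 2217 and 316 of 3774 at a minimum of 50 reads, and 208 and 123 of 432 at 500 reads, against 578 and 197 of 1044. Antisense hosts numbered 14 lower and 20 higher of 47, 370 and 296 of 960, and 51 and 75 of 189 in these settings, against 103 and 148 of 366. No paired analysis was possible because each genotype has 1 library. That single library per genotype, and the lack of a transcript match for most members, limit every value above.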
